A study of Danio rerio with 48 samples.

Results

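The genes described here encode the assembly factors of the small ribosomal subunit, proteins that fold, modify and cut the precursor of small-subunit ribosomal RNA and escort the particle out of the nucleus. They were chosen by known function, as 49 listed symbols, with earlier results of these data known. Those with a mean over all 48 embryos of at least 1 CPM (reads per 1000000 reads of the library) were kept. All 49 symbols were present among the 31658 entries of the table, and 47 met the limit. The exceptions were utp18, a UTP-B protein with 7 reads in all, and nob1, the endonuclease that makes the last cut of the small-subunit RNA, with 36 reads in all. The members nearest the limit on either side were nop14, inside at a mean of 1.52 CPM, and nob1, outside at 0.117 CPM. All 47 were among the 16431 genes tested, so the filter on low counts removed none of them.

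Assembly begins in the nucleolus, where the UTP-A and UTP-B complexes, the U3 small nucleolar particle and the MPP10 complex bind the growing transcript and form the small subunit processome. Helicases, a GTPase, nucleases and modifying enzymes then remodel and cut the RNA, and a further set of proteins carries the pre-40S particle to the cytoplasm, where kinases and the endonuclease finish it. The pathway is most active in growing, dividing cells, and in zebrafish mutants of several of these factors show defects of the digestive organs, the brain or the eye.

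Whole single embryos of the RIKEN WT strain were compared at 24, 36 and 48 hours post fertilisation (hpf), all labelled as one family with the line name agu79. What the allele changes in the gene is not stated in the labels. Homozygous noc2l -/- embryos (mutants) numbered 9, 9 and 7 at these ages, and noc2l +/+ embryos (wild types) 6, 8 and 9. The labels name no separate clutches, so the p-values concern the spread between single embryos of this family. Noc2l is a nucleolar protein, and large-subunit assembly is among the roles known for its family. Messenger RNA was read at its 3' end with 1 library per embryo. A whole embryo holds every tissue, so more cells that use a gene and more RNA per cell cannot be told apart.

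Total counts per library ran from 797752 to 11016313 reads, and 3 of the 48 libraries were shallow, with a total under the median divided by 3. They were mutant embryo 8 and wild-type embryo 4 of the 24 hpf groups, and embryo 9 of the 48 hpf wild types. Markers of nerve, muscle, blood, skin, yolk, heart, vessel, cartilage, hatching gland and pigment were read in every library, and the lens marker cryaa in all but 2. Of these 18 markers 1 was called between genotypes at any age with edgeR, the neuronal neurod1 at 48 hpf (-0.63, SE 0.15, adjusted p = 0.0097), and its part in the results was not tested. DESeq2 called 1 marker lower at 48 hpf, and limma voom 1 higher at 36 hpf and 2 lower at 48 hpf. The next by edgeR p at 48 hpf, cryaa (-0.91, SE 0.33), the lens crystallin crybb1 (0.99, SE 0.45) and the epidermal keratin krt4 (0.20, SE 0.10), did not pass with edgeR. The noc2l transcript ran from 2.08 to 16.3 CPM (median 4.35) in mutants against 6.54 to 31.9 CPM (median 19.1) in wild types at 24 hpf, from 2.69 to 10.6 (5.07) against 6.7 to 23.4 (15.7) at 36 hpf, and from 2.69 to 6.99 (3.75) against 5.71 to 22.7 (13.2) at 48 hpf. The ranges overlapped at each age. At 36 hpf mutant embryos 6, 8 and 9 (6.85, 7.03 and 10.6 CPM) lay within the wild-type range. So did mutant embryo 4 at 48 hpf (6.99 CPM). At 24 hpf the library labelled mutant embryo 5 read 16.3 CPM (44 reads), within the wild-type range, and its label was not tested here. The other 8 mutants of that age read 2.08 to 6.31 CPM, under every wild type. The log2 differences of -1.93 (SE 0.34), -1.52 (SE 0.30) and -1.72 (SE 0.33) passed the test (edgeR adjusted p of 0.00108, 0.00242 and 6.87e-04), and without that library the first was -2.26 and passed as well. None of the 49 listed genes lies on the chromosome of noc2l in the RefSeq table.

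Read embryo by embryo, the summed level of the members averaged higher in mutants at each age, and the separation from wild types was complete only at 48 hpf. The summed level of the 47 members at 24 hpf ran from 1291 to 1867 CPM in mutants (mean 1590 ± 181 SD, n = 9) against 1173 to 1653 CPM in wild types (1360 ± 201, n = 6). The highest of these sums was that of the library labelled mutant embryo 5, and the next mutant read 1786 CPM. At 36 hpf it ran from 1070 to 1359 CPM in mutants (1240 ± 112, n = 9) against 818 to 1099 CPM in wild types (939 ± 89.9, n = 8). At 48 hpf it ran from 996 to 1282 CPM in mutants (1180 ± 98.6, n = 7) against 777 to 869 CPM in wild types (824 ± 30.2, n = 9). At 36 hpf the groups met only at mutant embryo 1, which read 1070 CPM, and wild-type embryo 8, which read 1099 CPM. Because the members were chosen with results of these data known, no test was made of their sum.

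**Figure D1:**
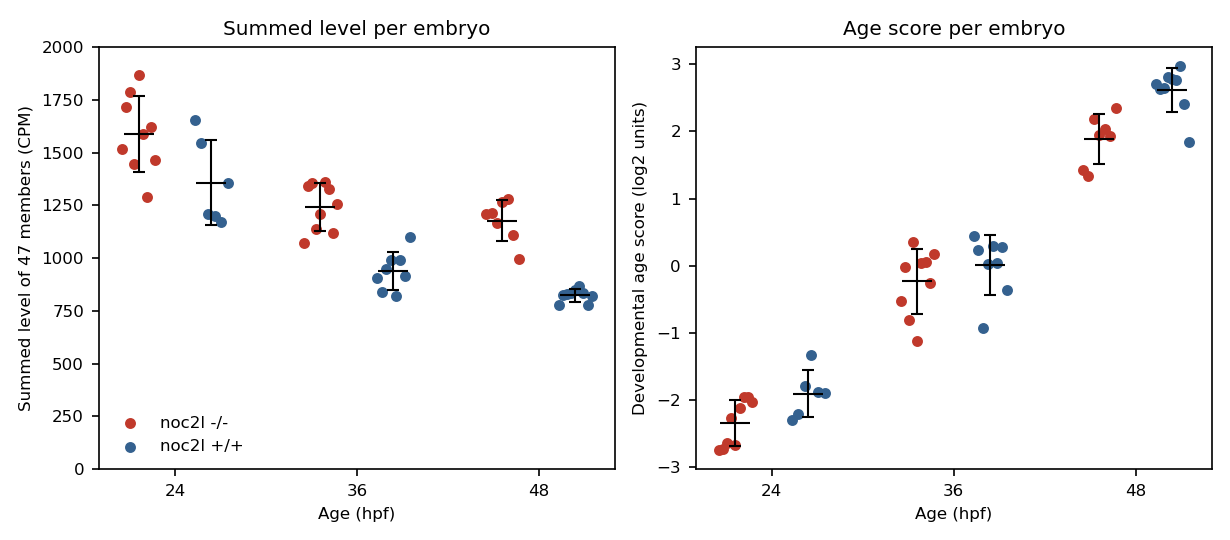
Summed level of the 47 members in CPM (left) and developmental age score in log2 units (right) for each embryo at 24, 36 and 48 hpf, with noc2l -/- in red and noc2l +/+ in blue; points are embryos and bars are mean ± SD. At 48 hpf the lowest mutant sum is 996 CPM and the highest wild-type sum 869 CPM, while age scores of mutants run from 1.34 to 2.35 against 1.84 to 2.97 in wild types. The lowest of these wild-type scores is that of embryo 9, a shallow library, and the next is 2.41.

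Higher values were spread over most members. In single 48 hpf mutants between 40 and 45 of the 47 members lay above the wild-type median of that age, against 14 to 26 in single wild types. At 36 hpf the corresponding counts were 36 to 45 in mutants and 9 to 35 in wild types, and at 24 hpf 19 to 42 and 10 to 39. Measured against the highest wild type, which is a stricter mark, mutant embryo 4 at 48 hpf exceeded it for 32 members and mutant embryo 7, the lowest, for 14. Wild types set these marks and mutants did not, so the average wild-type count above the median was fixed in advance. The same counts over all genes are not given here.

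The developmental age of each embryo was also scored, and its relation to these levels was not tested. The age score, the mean log2 level of 200 genes that rise minus that of 200 genes that fall in wild types between 24 and 48 hpf, with members and the other lists left out, is by construction lower in less advanced embryos. Mutants scored -2.74 to -1.96 (median -2.27) against -2.30 to -1.33 (median -1.89) in wild types at 24 hpf, -1.12 to 0.35 (median -0.02) against -0.92 to 0.45 (median 0.14) at 36 hpf, and 1.34 to 2.35 (median 1.95) against 1.84 to 2.97 (median 2.70) at 48 hpf. The ranges overlapped at every age, at 48 hpf only through wild-type embryo 9 (1.84), a shallow library. The next lowest wild type at 48 hpf scored 2.41, above every mutant of that age. Counts from fits with the score as a covariate stand beside those of each age.

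The first comparison asked whether the members differed at 24 hpf, and no single member passed the test there. Of 47 members 38 read above 0 and 9 below, with a median log2 difference of 0.19 (mutant minus wild type) beside 0.02 over all genes tested. None was called by edgeR, DESeq2 or limma voom, and 11 had an unadjusted edgeR p under 0.05, all higher. With the age score as covariate that number was 5, all higher, at a median of 0.17. At the adjusted threshold 0.11% of all genes were called higher and 0.0122% lower at this age. Matching shares of all genes at an unadjusted p, or above 0, are not given here for any comparison. The smallest p belonged to fcf1, a PIN-domain protein whose yeast counterpart cuts at the start of the small-subunit RNA. It ran from 43.9 to 70.2 CPM (median 52) in mutants against 31.9 to 47.5 CPM (median 36.7) in wild types, a log2 difference of 0.51 (SE 0.15, edgeR adjusted p = 0.202). Next was rrp36, a processome protein, at 15.5 to 35.8 CPM (median 22.8) in mutants against 6.54 to 23.3 CPM (median 14.1) in wild types, with a difference of 0.60 (SE 0.22, edgeR adjusted p = 0.438). For both genes the groups overlapped, wild-type embryo 4, a shallow library, being the lowest for rrp36. Without the library labelled mutant embryo 5 no member was called either, the median was 0.19, and fcf1 and rrp36 read 0.49 and 0.52.

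At 36 hpf 9 members rose in mutants and none fell: dnttip2, imp3, rrp7a, utp25, wdr75, nol6, wdr36, ddx52 and bms1. This is 9 of 47, where 0.615% of all genes tested were called higher and 0.0913% lower. The median log2 difference over members was 0.42, beside -0.01 over all genes, and 46 of 47 values were above 0. At an unadjusted edgeR p under 0.05, a cut for which no share of all genes is given, stood 35 members higher and 0 lower. DESeq2 and limma voom called 11 members each.

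The largest called difference was that of dnttip2, a nucleolar protein whose yeast counterpart is a processome factor, at 0.94 (SE 0.16, edgeR adjusted p = 1.12e-04). Its level ran from 21.3 to 47 CPM (median 41.1) in mutants against 11.8 to 27.6 CPM (median 20.9) in wild types, with mutant embryo 1 alone among the wild-type values. The UTP-C protein rrp7a, at 12.9 to 25.8 CPM (median 22.4) in mutants against 8.29 to 16.3 CPM (median 11.9) in wild types, rose by 0.82 (SE 0.19, edgeR adjusted p = 0.0121). Mutant embryos 3 and 8 lay within the wild-type range.

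Also higher was utp25, known in zebrafish as the digestive organ expansion factor, at 8.94 to 22.7 CPM (median 17.6) in mutants against 4.66 to 13.4 CPM (median 11.7) in wild types. Its difference was 0.75 (SE 0.18, edgeR adjusted p = 0.023), and mutant embryo 5 alone lay within the wild-type range. The MPP10 complex protein imp3 ran from 23.7 to 42 CPM (median 29.2) in mutants against 17.2 to 23.9 CPM (median 19.7) in wild types, a difference of 0.63 (SE 0.14, edgeR adjusted p = 0.0114). Mutant embryos 5 and 9 lay just under wild-type embryo 6, the highest of its group, and the other mutants above all wild types.

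The others called at 36 hpf were the UTP-A protein wdr75 (0.71), the UTP-B protein wdr36 (0.61), the UTP-C scaffold nol6 (0.60), the helicase ddx52 (0.60) and the GTPase bms1 (0.49), with edgeR adjusted p between 0.0358 and 0.0447. Among the 7 measured pre-40S factors none passed with edgeR or DESeq2, while 3 had an unadjusted p under 0.05 and limma voom called 1. The kinase riok2 read -0.00 (SE 0.15) and the assembly factor ltv1 0.06 (SE 0.12). Groups did not overlap for 2 members, ngdn and krr1, named after their values were seen, both higher in mutants. Over all genes 0.219% did the same. Most calls at this age were close to the threshold. With single libraries left out, dnttip2, imp3 and rrp7a kept their calls in all 17 fits. The call was lost in 13 of these fits for bms1, 12 for wdr36, 10 each for nol6 and ddx52, 9 for wdr75 and 5 for utp25. Without wild-type embryos 2, 3, 4, 5 or 7, or mutant embryos 2, 3, 6, 7 or 9, each left out alone, 4 or 5 members were called, and with the age score as covariate 4 (dnttip2, imp3, rrp7a and utp25) at a median of 0.41.

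At 48 hpf 19 members rose and none fell, with a median log2 difference of 0.53 beside -0.02 over all genes tested. Of 47 members 45 read above 0, and 38 had an unadjusted edgeR p under 0.05, all higher. At the adjusted threshold 1.49% of all genes tested were called higher and 0.712% lower, and no share at the unadjusted cut is given. DESeq2 called 22 members, all 19 among them. Limma voom called 17, of which 15 were among the 19, and did not call imp3, tsr1, wdr3 or wdr75. Of 8 alternative fits tsr1 and wdr36 each lost their call in 5 and imp3 in 4. With the age score as covariate 9 were called, at a median of 0.45, and 25 had an unadjusted edgeR p under 0.05, all higher. These were bysl, imp4, pwp2h, rcl1, rrp12, rrp7a, rrp9, utp4 and wdr43, which were also called in every other alternative and without any single library.

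**Figure D2:**
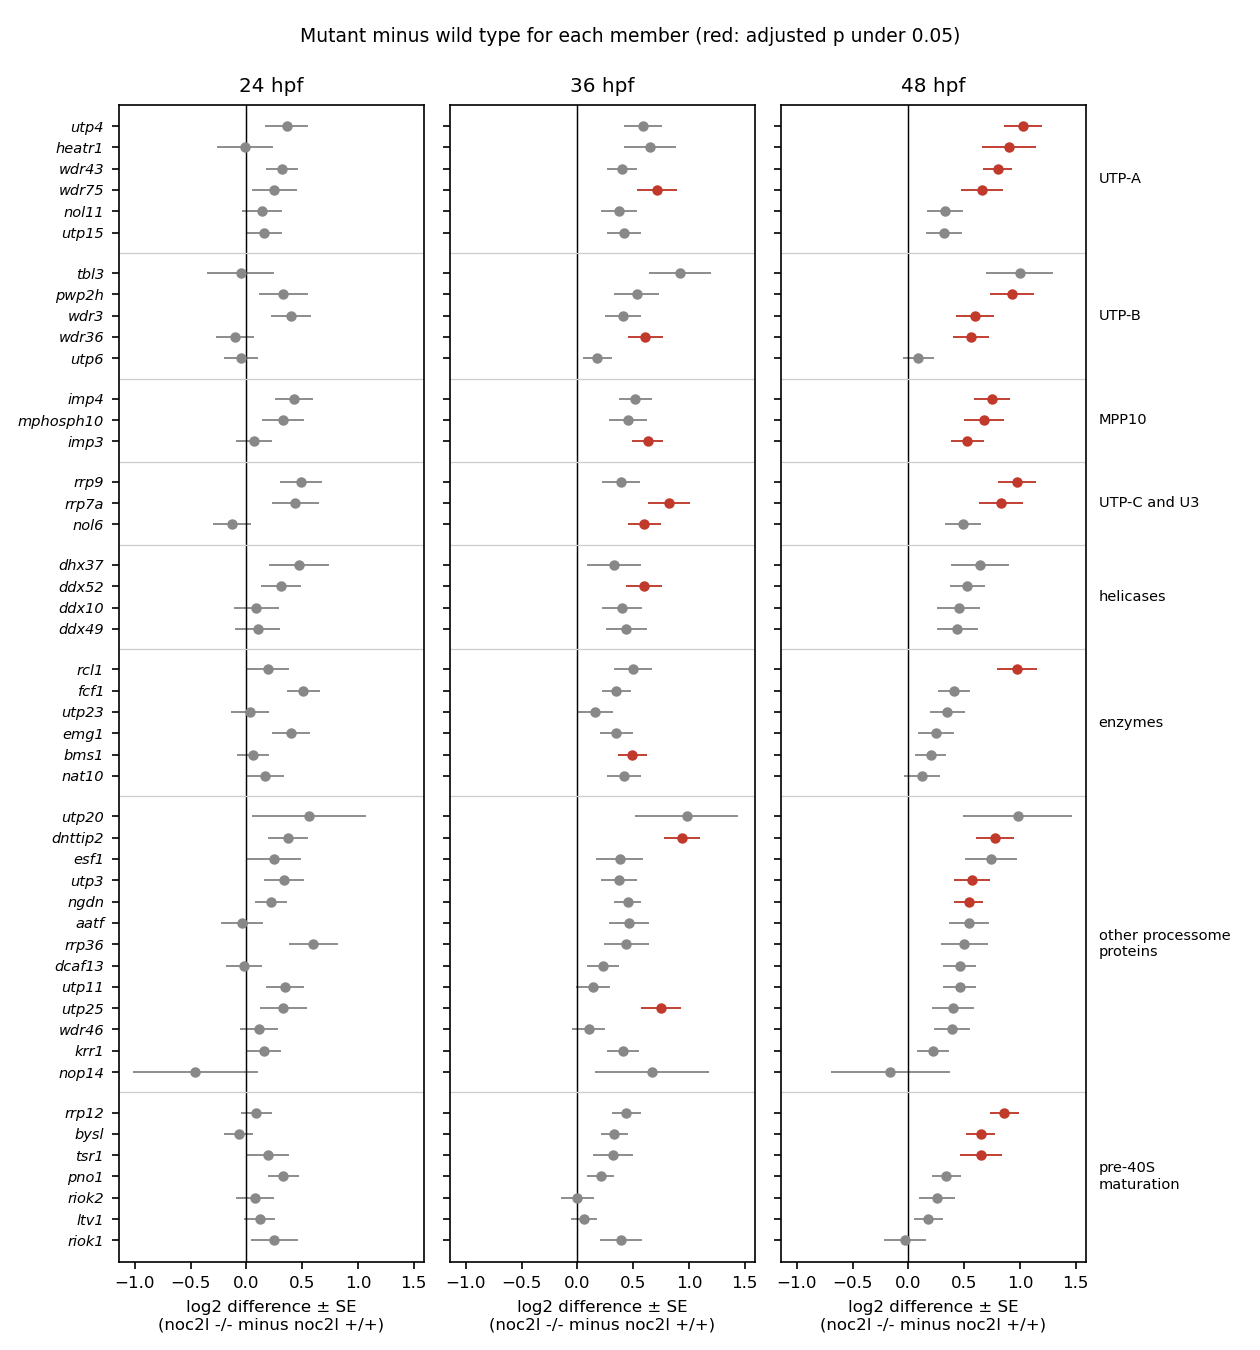
Log2 difference, noc2l -/- minus noc2l +/+, ± SE for each of the 47 members at 24, 36 and 48 hpf, ordered by role class; red marks an edgeR adjusted p under 0.05. No point is red at 24 hpf, 9 are at 36 hpf and 19 at 48 hpf, all to the right of 0.

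UTP-A, which binds the transcript first and is linked to its synthesis, had 4 of 6 members higher at 48 hpf, with a median of 0.73. The gene utp4, which encodes cirhin, showed the largest called difference of all members at 1.03 (SE 0.17, edgeR adjusted p = 3.33e-05), with 21.1 ± 3.41 CPM in mutants (SD, n = 7) and 10.1 ± 3.73 CPM in wild types (n = 9) and no overlap of the groups. For wdr43 the level ran from 46.7 to 85.8 CPM (median 70.1) in mutants against at most 48.9 CPM (median 40.1) in wild types, and the difference was 0.80 (SE 0.13, edgeR adjusted p = 1.69e-05). Mutant embryo 7 was the only one within the wild-type range. The repeat protein heatr1 (0.90) and wdr75 (0.66) were also called, with edgeR adjusted p of 0.0199 and 0.0423. The call of heatr1 ended without mutant embryo 5 (0.84, edgeR adjusted p = 0.0565). Values for utp15 and nol11 were 0.32 (SE 0.16) and 0.33 (SE 0.16), which did not pass.

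UTP-B, the scaffold that receives the U3 particle, had 3 of 5 measured members higher: pwp2h (0.93, SE 0.20), wdr3 (0.60, SE 0.17) and wdr36 (0.56, SE 0.16). Their edgeR adjusted p were 0.00256, 0.0423 and 0.0457. The level of pwp2h was 10.5 to 23 CPM (median 21.7) in mutants against 7.11 to 16.5 CPM (median 9.36) in wild types. Of the mutants embryo 6 lay among the wild types, and of the wild types embryo 1 was the highest. The value for tbl3 was 1.00 (SE 0.30) and did not pass (edgeR adjusted p = 0.061). DESeq2 called tbl3 and limma voom did not. Its levels were low, 4.8 ± 1.45 CPM in mutants (n = 7) and 2.24 ± 1.23 CPM in wild types (n = 9). The difference of utp6 was 0.09 (SE 0.14).

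All 3 members of the MPP10 complex, which joins U3 to the transcript, were higher: imp4 (0.75, SE 0.16), mphosph10 (0.68, SE 0.18) and imp3 (0.53, SE 0.15), with edgeR adjusted p of 0.00128, 0.0166 and 0.0388. For imp4 every mutant, at 26 to 37.6 CPM (median 29.7), lay above every wild type, at 11.8 to 24.2 CPM (median 17.2). The call of mphosph10 ended without mutant embryo 3 (0.58, edgeR adjusted p = 0.0921), and that of imp3 without mutant embryo 1, 2 or 4 or wild-type embryo 4, 5 or 9, each left out alone (edgeR adjusted p up to 0.104). Of the UTP-C and U3 class 2 of 3 members were higher. The U3-specific protein rrp9 rose by 0.97 (SE 0.17, edgeR adjusted p = 1.05e-04), at 11.9 to 28 CPM (median 22.2) in mutants against 7.06 to 12.5 CPM (median 11.1) in wild types. Only mutant embryo 6 lay within the wild-type range of rrp9. The UTP-C protein rrp7a rose by 0.83 (SE 0.20, edgeR adjusted p = 0.00644), whereas nol6, called at 36 hpf, read 0.49 (SE 0.16, edgeR adjusted p = 0.104). Limma voom called nol6 at this age and DESeq2 did not.

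Among the enzymes rcl1, an RNA cyclase-like partner of bms1, was the 1 of 6 that passed, with a difference of 0.97 (SE 0.18, edgeR adjusted p = 1.65e-04). Mutants, at 11.4 to 22.7 CPM (median 13.8), lay above all wild types, at 4.88 to 10.6 CPM (median 7.75). Its partner bms1 read 0.20 (SE 0.14), the methyltransferase emg1 0.25 (SE 0.16), the acetyltransferase nat10 0.12 (SE 0.16), fcf1 0.41 (SE 0.14) and utp23, another PIN-domain protein, 0.35 (SE 0.16), none of which passed. No helicase passed with edgeR or limma voom, although all 4 had an unadjusted p under 0.05, and DESeq2 called ddx52. The level of ddx52 was 14.6 to 31 CPM (median 21) in mutants against 11.3 to 18.4 CPM (median 17.4) in wild types, overlapping, with a difference of 0.53 (SE 0.16, edgeR adjusted p = 0.0696). Its relatives read 0.64 (SE 0.26) for dhx37, 0.45 (SE 0.19) for ddx10 and 0.44 (SE 0.18) for ddx49.

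**Figure D3:**
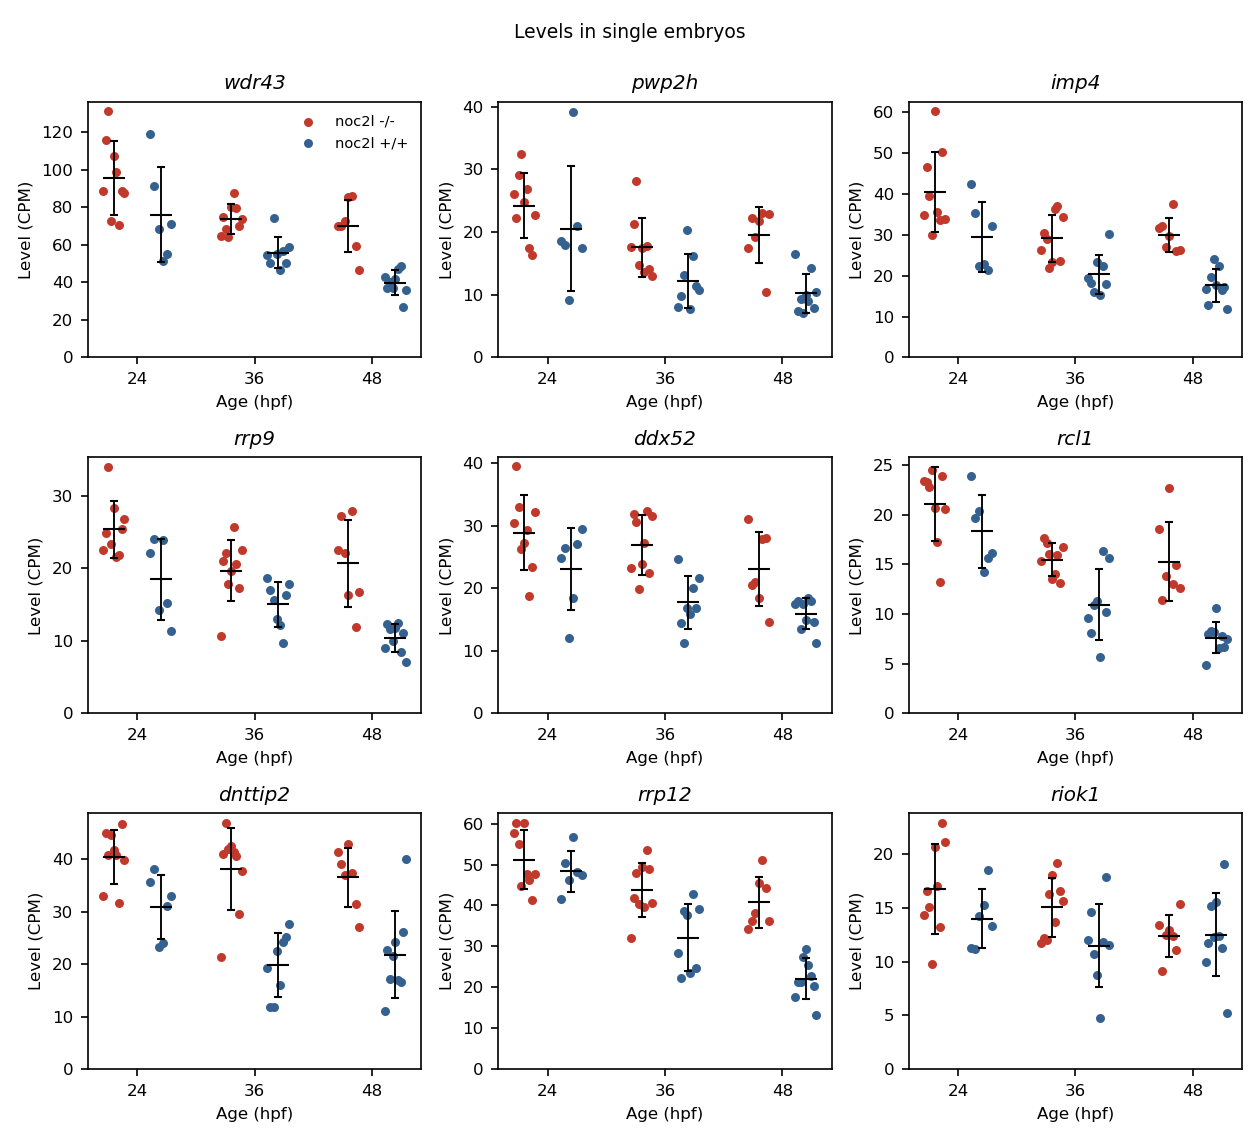
Level in CPM of the member of smallest p at 48 hpf in each role class, and of riok1, in every embryo at 24, 36 and 48 hpf, with noc2l -/- in red and noc2l +/+ in blue; bars are mean ± SD and each vertical axis starts at 0. At 48 hpf all mutants lie above all wild types for imp4, rcl1 and rrp12, and for riok1 all mutants lie inside the wild-type range.

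Of 13 other processome proteins 3 were higher at 48 hpf, dnttip2 (0.78, SE 0.17), ngdn, or neuroguidin (0.54, SE 0.13), and utp3 (0.57, SE 0.16), at edgeR adjusted p of 0.00178, 0.00643 and 0.0423. The level of dnttip2 was 27 to 43 CPM (median 37.4) in mutants against 11.1 to 40 CPM (median 21.5) in wild types, whose highest value came from embryo 9, a shallow library. For ngdn, at 50.2 ± 4.86 CPM in mutants (n = 7) and 34.3 ± 5.23 CPM in wild types (n = 9), the groups did not overlap. The least abundant member, nop14, was the lowest of the class at -0.16 (SE 0.53), with 0 to 1.67 CPM (median 1.06) in mutants against 0.318 to 2.61 CPM (median 1.09) in wild types. At this depth a difference of the size seen in other members was not detectable for nop14. The other 9 of the class read 0.22 (krr1) to 0.98 (utp20, SE 0.49), and none passed with edgeR. Among these, DESeq2 and limma voom both called esf1 (0.74, SE 0.23, edgeR adjusted p = 0.0654).

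Of 7 pre-40S factors 3 were higher: rrp12, an export factor, by 0.86 (SE 0.13), bysl, or bystin, by 0.65 (SE 0.13), and tsr1, a GTPase-like protein, by 0.65 (SE 0.19). Their edgeR adjusted p were 6.45e-06, 4.46e-04 and 0.0457. The smallest p of any member at this age was that of rrp12, at 34.2 to 51 CPM (median 38.2) in mutants against 13.2 to 29.3 CPM (median 21.4) in wild types, without overlap. The other 4 did not pass: the atypical kinases riok1 (-0.03, SE 0.19) and riok2 (0.26, SE 0.16), the assembly factor ltv1 (0.18, SE 0.13) and the nob1 partner pno1 (0.34, SE 0.13). The level of riok1 was 9.12 to 15.4 CPM (median 12.5) in mutants against 5.18 to 19.1 CPM (median 12.3) in wild types, the mutants lying inside the wild-type range. No test compared these role classes with each other.

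At 48 hpf the groups did not overlap for 6 of 47 members, utp4, imp4, rcl1, ngdn, rrp12 and wdr3, all higher in mutants. Among all genes tested 0.615% were higher without overlap. Of the calls made at 36 hpf 5 of 9 (wdr75, wdr36, imp3, rrp7a and dnttip2) were also made at 48 hpf, where they are 5 of 19. The matching share over all genes is not given here, so this overlap is a description only. The 2 ages share no embryo but share 1 spread per gene in the fit. Calls near the threshold at 48 hpf rested on single embryos, left out 1 at a time: wdr3 on mutants 3 and 5 and wild types 1, 4 and 8, wdr75 on mutants 3, 4 and 6 and wild types 3, 4, 6, 7 and 8, and wdr36 on mutants 1, 2, 3, 4 and 7 and wild types 2, 3, 4 and 6. The same held of tsr1 for mutants 2, 4 and 5 and wild types 1, 2, 3, 6, 7 and 9, and of utp3 for mutants 1, 3, 4 and 6 and wild types 2, 3, 6, 7, 8 and 9. Without such an embryo the edgeR adjusted p of these genes reached up to 0.287 (wdr75).

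Whether the genotype difference itself changed with age was tested in the same fit, and no member passed. The median change of the difference was 0.24 from 24 to 36 hpf, 0.08 from 36 to 48 hpf and 0.32 from 24 to 48 hpf, beside -0.02, -0.01 and -0.02 over all genes. At an unadjusted edgeR p under 0.05 stood 7, 3 and 13 members, all toward a larger difference at the later age. These counts are unadjusted, and no share of all genes at that cut is given. At the adjusted threshold 0%, 0.0304% and 0.0426% of all genes were called toward larger values, and 0%, 0.0243% and 0.0183% toward smaller ones. The smallest p from 24 to 48 hpf were those of rrp12 (0.77, SE 0.19) and bysl (0.72, SE 0.18), each with an edgeR adjusted p of 0.0892. DESeq2 called these 2 genes and limma voom none, and edgeR called bysl once the 3 shallow libraries were left out. For bms1, called at 36 hpf alone, the difference at 48 hpf was 0.20 against 0.49 at 36 hpf, and the change of -0.30 (SE 0.19) did not pass.

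The course with age in each genotype gives the setting of these differences. Over the day, 48 minus 24 hpf, 19 of 47 members fell in mutants, with a median log2 difference of -0.36, and 38 of 47 in wild types, with a median of -0.72. No member was called higher over the day in either genotype. Over all genes 13.8% were called lower and 13.9% higher in mutants, and 13.5% lower and 14% higher in wild types, with medians of -0.02 and 0.00. These comparisons share their embryos with those between genotypes, so their overlap is not counted here.

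In the first interval, from 24 to 36 hpf, 13 members fell in mutants (median -0.27) and 25 in wild types (median -0.56), where 4.97% and 3.52% of all genes fell. In the second, from 36 to 48 hpf, none fell in mutants (median -0.10) and 8 in wild types (median -0.14), where 5.26% and 7.74% of all genes fell. The count of 0 in mutants came from edgeR, DESeq2 and limma voom alike, and 3 members had an unadjusted edgeR p under 0.05. The 8 wild-type falls were those of rrp12, wdr43, tsr1, utp4, rrp9, pno1, wdr46 and rcl1, and this count was 4 with limma voom and 5 with DESeq2 size factors.

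Over the whole day the steepest called fall was that of tbl3, a UTP-B repeat protein, at -1.31 (SE 0.29) in mutants and -2.35 (SE 0.31) in wild types (edgeR adjusted p of 2.37e-04 and 5.45e-09). For pno1, the member with the most reads, the called difference was -0.86 (SE 0.13) in both genotypes. The genes riok1, fcf1 and ltv1 had the values nearest 0 in wild types, -0.13 (SE 0.21), -0.15 (SE 0.15) and -0.19 (SE 0.14), and did not pass. The difference of rrp12 was -0.33 (SE 0.13) in mutants, which did not pass (edgeR adjusted p = 0.051), and -1.10 (SE 0.14) in wild types, which did (2.62e-09). That of bysl was -0.30 (SE 0.13) in mutants, which did not pass (edgeR adjusted p = 0.064), and -1.02 (SE 0.13) in wild types, which did (2.98e-09).

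**Figure D4:**
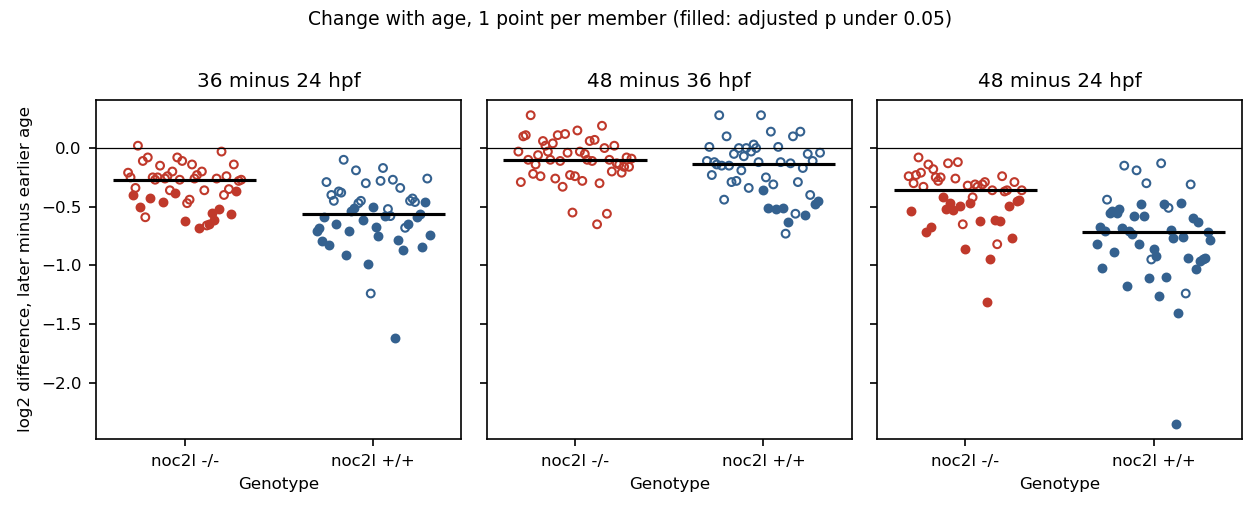
Log2 difference between ages for each of the 47 members in noc2l -/- (red) and noc2l +/+ (blue), for 36 minus 24, 48 minus 36 and 48 minus 24 hpf; filled points have an edgeR adjusted p under 0.05 and black lines are medians. Over the day the median is -0.36 in mutants and -0.72 in wild types, with 19 and 38 filled points.

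Mutants at 48 hpf were also set beside wild types of 36 hpf. Of 47 members 9 were higher in the older mutants and none lower, with a median log2 difference of 0.36 beside 0.00 over all genes and 44 values above 0. At an unadjusted edgeR p under 0.05, a cut for which no share of all genes is given, stood 26 members higher and 0 lower. At the adjusted threshold 5.75% of all genes were called higher and 6.11% lower in this comparison. Called were dnttip2 (0.87), ddx49 (0.72), rrp7a (0.71), pwp2h (0.68), wdr75 (0.62), ngdn (0.57), imp4 (0.56), imp3 (0.53) and bysl (0.42), with edgeR adjusted p between 1.02e-04 and 0.0226. For ngdn alone the groups did not overlap, as for 1.81% of all genes. DESeq2 called 18 members and limma voom 10. Mean levels in 48 hpf mutants exceeded those of 24 hpf wild types for 14 of 47 members.

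Other genes of the small-subunit pathway, a list of 39 names of which 31 were tested, were also called only toward higher values. None was called at 24 hpf by edgeR, DESeq2 or limma voom, with 6 higher and 1 lower at an unadjusted p under 0.05. At 36 hpf 4 were higher, fbl, the methyltransferase of box C/D particles (0.40), nol7 (0.48), abt1 (0.90) and fam207a (0.82), and at 48 hpf 9. DESeq2 called 8 and 11 at these ages and limma voom 9 and 9. The 4 of smallest p at 48 hpf were nop58 (0.56, SE 0.10), a core protein of box C/D particles including U3, nol7 (0.58, SE 0.11), a nucleolar protein, fam207a (1.02, SE 0.20), whose yeast counterpart Slx9 acts in export, and fbl (0.40, SE 0.09). Their edgeR adjusted p were 1.79e-04, 3.30e-04, 7.24e-04 and 0.00493. The other 5 were ddx47, tsr2, nop56, noc4l and rsl1d1. None was called lower, and medians were 0.18, 0.37 and 0.45 at the 3 ages. Over all genes edgeR called 0.615% higher and 0.0913% lower at 36 hpf, and 1.49% higher and 0.712% lower at 48 hpf. Medians over all genes are given above for each age.

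The proteins that these factors build into the subunit gave other values. Of 36 genes for small-subunit ribosomal proteins none was called between genotypes at any age by edgeR, DESeq2 or limma voom. At an unadjusted edgeR p under 0.05 stood 27, 0 and 4 of them, all higher, and medians were 0.23, -0.01 and 0.11. No share of all genes at that cut is given for any list here, so these counts are a description only. Their summed level at 24 hpf was 89855 to 143370 CPM (median 96273) in mutants. In wild types of that age it was 54076 to 98251 CPM (median 93245), so the ranges overlapped. At 48 hpf rps23, rps13 and rps7 read 0.25, 0.23 and 0.19 (SE 0.09 to 0.10). Nor was any of 15 proliferation genes called at any age by the 3 tools, with medians of -0.10, -0.15 and -0.07 and unadjusted counts of 1 higher and 2 lower, 0 and 2, and 1 and 3. At 48 hpf the cyclin ccna2, the ribonucleotide reductase subunit rrm2, the kinase aurkb and the replication helicase subunit mcm6 read -0.38 (SE 0.15), -0.23 (SE 0.10), 0.27 (SE 0.12) and -0.23 (SE 0.11). At 48 hpf the summed level of the 15 genes was 1341 to 1728 CPM (median 1417) in mutants. In wild types it was 1484 to 1848 CPM (median 1571), and the ranges overlapped. Its relation to the levels of the assembly factors was not tested. Over all genes edgeR called 1.49% higher and 0.712% lower at 48 hpf, so 0 calls in lists this short are near those shares.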

How the data were processed

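Single zebrafish embryos were profiled with Lasy-Seq, a 3' messenger RNA method, per the labels' protocols. The authors deposited 1 table of estimated counts per gene for 48 libraries, not normalised. Salmon, BWA 0.7.17-r1188, fastp 0.21.0 and the GRCz11 build are named, per the submitters' processing notes, without role or order. A count at the 3' end does not scale with gene length.

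Counts were rounded (2 values were not whole) and filtered with filterByExpr (minimum count 10), leaving 16431 genes with 99.8% of reads; 3197 of 31658 entries had no count. In R 4.3.3, edgeR 4.0.16 fitted 1 mean for each of the 6 groups over all 48 libraries with TMM scaling and a robust quasi-likelihood test. P-values were adjusted by Benjamini-Hochberg over all genes at a threshold of 0.05. An SE is the log2 difference divided by the root of its F statistic. Levels are TMM-scaled CPM, with a prior count of 2 on the log2 scale. The edgeR calculation was also run on simulated counts, and the outcome is not given here.

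Members and gene lists were chosen with earlier results of these data known. Values of every embryo are given for the member of smallest p at 48 hpf in each of 8 role classes, the 4 and 2 of smallest p at 36 and 24 hpf, and the 2 lowest at 48 hpf; of other lists, the 4 genes of smallest p at 48 hpf are named, except 1 that is not reported here, and further genes named from them were chosen after their values were seen. No 2 libraries of a group agreed within sampling noise (chi-square over its degrees of freedom at least 5.46). Alternatives were DESeq2 size factors, no filter, DESeq2 1.42.0, limma 3.58.1 voom, a single age, omission of shallow or single libraries, a replicate block and an age score covariate. Promoter motifs were not analysed here.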

Additional observations from a re-analysis of the deposited data

Results flagged for a closer look

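Of 102 group checks on 17 quantities, 7 had 1 embryo standing apart from the rest of its group, and chance alone flags about 1 in 20 such groups. Values are log2 CPM. The mean over all members was lowest in mutant embryo 7 at 24 hpf, at 4.51, with the next embryo at 4.71. For pwp2h mutant embryo 6 at 48 hpf lay at 3.43 (99 reads), with the next at 4.15. For rrp9 mutant embryo 1 at 36 hpf lay at 3.46 (71 reads), with the next at 4.14. For utp25 mutant embryo 5 at 36 hpf lay at 3.22 (51 reads), with the next at 3.93. For nop14 mutant embryo 4 at 48 hpf lay at -1.53 (0 reads), with the next at 0.26. For rrp7a wild-type embryo 1 at 48 hpf lay at 2.10 (17 reads), with the next at 3.22. For riok1 wild-type embryo 9 at 48 hpf, a shallow library, lay at 2.47 (11 reads), with the next at 3.37.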

How the results depend on the processing

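Of 1149 values recomputed for single genes 1099 kept their direction and side of the threshold, 27 lost and 12 gained a call, and 11 changed sign; the cause was not tested. With the age score as covariate 4 members were called at 36 hpf and 9 at 48 hpf, in place of 9 and 19. Falls in wild types from 36 to 48 hpf numbered 5 with DESeq2 size factors, 4 without a filter, 4 with limma voom and 5 with the replicate block, in place of 8. Falls in mutants from 24 to 36 hpf numbered 8 without a filter, in place of 13. The change of the genotype difference from 24 to 48 hpf gave 2 calls with DESeq2 and 1 without the shallow libraries, in place of 0, and 48 hpf mutants against 36 hpf wild types gave 18 with DESeq2, in place of 9.

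Without single libraries the members called at 24 hpf stayed at 0. At 36 hpf they numbered 4 to 11 and at 48 hpf 14 to 24, and the medians at the 3 ages lay at 0.17 to 0.26, 0.39 to 0.48 and 0.51 to 0.58. The sign of riok1 at 48 hpf turned with the replicate block (0.01), with the age score (0.14) and in 5 of 16 single omissions (range -0.09 to 0.07, turned values 0.02 to 0.07). That of nop14 at 48 hpf turned in 3 (range -0.28 to 0.05), and that of imp3 at 24 hpf without mutant embryo 6 (range -0.02 to 0.20). Same-numbered embryos shared no deviation over r = 0.1 (-0.0521 to 0.0675), and 1 of 6, 2 of 8 and 1 of 7 pairs correlated best with their own number. With the replicate block 0, 7 and 16 members were called at the 3 ages.

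Over all genes edgeR called 20, 116 and 362 at the 3 ages, DESeq2 46, 160 and 471, limma voom 8, 155 and 505, and fits of single ages 8, 162 and 634. Depth limits nop14, utp20 and tbl3 most, and utp18 and nob1 could not be tested.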

Other observations

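The nucleases that cut and trim ribosomal RNA precursors, a subset chosen after their values were seen, were not called at any age by edgeR. At 48 hpf the RNase MRP and P subunits pop5, rpp38, pop4 and rpp40 read 0.55 (SE 0.19), 0.53 (SE 0.24), 0.45 (SE 0.23) and 0.42 (SE 0.35), mutant minus wild type on the log2 scale. Their partners rpp30, pop7 and rpp25b read 0.05 (SE 0.17), -0.11 (SE 0.15) and -0.20 (SE 0.53). The exosome nuclease exosc10, its helicase mtrex and the exonuclease xrn2 read 0.10 (SE 0.24), 0.11 (SE 0.15) and -0.17 (SE 0.15). The smallest adjusted p among these 10 genes was 0.127, for pop5.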
